A study of Mus musculus with 6 samples.

Results

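The nuclear receptors REV-ERB alpha (Nr1d1), REV-ERB beta (Nr1d2), ROR alpha (Rora) and ROR beta (Rorb) were followed in pancreatic islets, together with Thra, the gene of thyroid hormone receptor alpha, which overlaps Nr1d1 on the opposite strand and serves as its check. The members were taken by symbol from the table of 23420 genes, and all 5 were found. They were selected on their expression values in the OIO and control libraries described here, so their differences are given as descriptions without a test. Polyadenylated RNA came from islets of C57BL/6J mice. The overfeeding-induced obesity (OIO) group was infused with the liquid diet Ensure through the stomach (13 to 18.5 kcal a day over 9 days). The control group was infused with saline over the same 9 days. There were 3 libraries in each group, with 20968058 to 48178375 counts per library. The labels give no age or sex, do not say whether a library came from a single mouse or a pool, and do not give the hour of islet collection. P-values therefore reflect library-to-library spread, which can be technical.

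REV-ERB and ROR proteins bind the same DNA element, a hexamer AGGTCA preceded by an A/T-rich stretch, with opposite effects. REV-ERB alpha and beta, whose ligand is heme, lack the activation helix of other nuclear receptors and recruit the corepressor NCoR and the deacetylase HDAC3, whereas ROR proteins activate. Both branches form the second loop of the circadian clock: CLOCK and BMAL1 drive Nr1d1 and Nr1d2 through E-boxes, and REV-ERB in turn represses the BMAL1 gene (Arntl) and other genes with the element. In beta and alpha cells, REV-ERB alpha is known to bear on hormone secretion.

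The promoters of Nr1d1 and Nr1d2 are shown because these were the members that differed most. They are the 250 bases before the RefSeq start of each gene (GRCm38.p6, minus strand), and capitals mark matches to the motifs searched. The Nr1d1 window is chr11:98775378-98775627 and the Nr1d2 window chr14:18239107-18239356.
Nr1d1: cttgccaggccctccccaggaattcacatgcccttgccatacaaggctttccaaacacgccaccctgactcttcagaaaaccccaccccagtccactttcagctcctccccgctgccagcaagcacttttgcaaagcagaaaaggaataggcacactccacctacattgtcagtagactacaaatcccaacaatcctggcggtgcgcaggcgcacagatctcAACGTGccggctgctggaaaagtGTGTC
Nr1d2: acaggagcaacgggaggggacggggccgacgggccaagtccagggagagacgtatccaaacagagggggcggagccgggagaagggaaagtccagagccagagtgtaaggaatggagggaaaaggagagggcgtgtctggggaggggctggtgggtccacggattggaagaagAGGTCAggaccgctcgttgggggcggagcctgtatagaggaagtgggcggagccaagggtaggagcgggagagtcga
The motifs searched on both strands were the E-box CACGTG, its variant CACGTT, the D-box forms TTATGTAA and TTACGTAA, the hexamers AGGTCA and GGGTCA, and a direct repeat of AGGTCA with 2 bases between the copies. Nr1d1 held CACGTT on the reverse strand, 28 to 23 bases before the start, as did 3.85% of 32851 promoter windows. Nr1d2 held AGGTCA 77 to 72 bases before the start, as did 14.0% of windows. The capitals at the end of the Nr1d1 line are the first bases of GTGTCACTGGGGCA, which runs from 5 bases before to 9 bases after the start. A search for GTGTCA followed, after any 2 bases, by GGGGCA was added once this sequence had been seen. Of windows of 300 bases, which reach past the start, 0.0152% held that pattern. Its match in Nr1d1 was certain from how the pattern was chosen, so this share does not bear on Nr1d1. The human NR1D1 promoter is known to carry an element through which REV-ERB alpha acts on its own gene. The Rora window and the first of the pair of Rorb windows held none of these letters. The second Rorb window held CACGTT. Thra was not searched. Among the clock genes known to be driven through E-boxes, described later, 5 of 11 with a window held CACGTG, against 6.02% of all windows. Among the known targets of REV-ERB and ROR, 4 of 9 with a window held AGGTCA, against 14.0% of all windows. These were Clock, Nfil3, G6pc and Fabp7. Only Nfil3 of them passed in the edgeR test described later, and G6pc was too low to test. The holders of CACGTG were Tef, Per1, Cry1, Bhlhe41 and Ciart. In the same test Tef and Bhlhe41 fell, Cry1 rose, and Per1 and Ciart did not pass. A gene was counted when any of its windows held the motif, whereas the shares are of single windows, so the measures are unlike. A match is a description of letters, not of binding.

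Both REV-ERB genes were far lower in islets of overfed mice, and no other member differed as much. Levels are CPM, counts scaled to a common library size with the TMM factors of edgeR. Nr1d1, the gene of REV-ERB alpha, had 94.9, 62.4 and 59.4 CPM in control replicates 1, 2 and 3 and 10.6, 11.4 and 13.3 CPM in OIO replicates 1, 2 and 3. Control replicate 1 was the highest, the other control libraries were close to each other, and every OIO library lay below every control library. The means were 72.3 ± 19.7 (SD, n = 3) in control and 11.7 ± 1.37 (SD, n = 3) in OIO islets, or 16.2% of control. The log2 fold change of OIO over control was −2.61. Without control replicate 1 it was −2.37.

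Nr1d2, the gene of REV-ERB beta, had 175.6, 165.4 and 156.7 CPM in the control and 40.3, 42.0 and 45.5 CPM in the OIO libraries. The groups were far apart and each was tight, with a coefficient of variation of 5.70% in control and 6.25% in OIO islets, against 27.2% and 11.7% for Nr1d1. The mean in OIO was 25.7% of that in control, a log2 fold change of −1.96. In both genes control replicate 1 was the highest library and OIO replicate 1 the lowest. A fall of at least 2-fold occurred in 0.544% of the 14903 genes tested, and the median log2 fold change of all genes tested was −0.01. Ordered from the most negative log2 fold change, Nr1d1 was gene 6 and Nr1d2 gene 14 of those tested. In the authors' deposited table the log2 fold changes were −2.58 for Nr1d1 and −1.96 for Nr1d2. In bulk islet RNA, fewer cells of a type and less RNA per cell cannot be told apart.

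**Figure D1:**
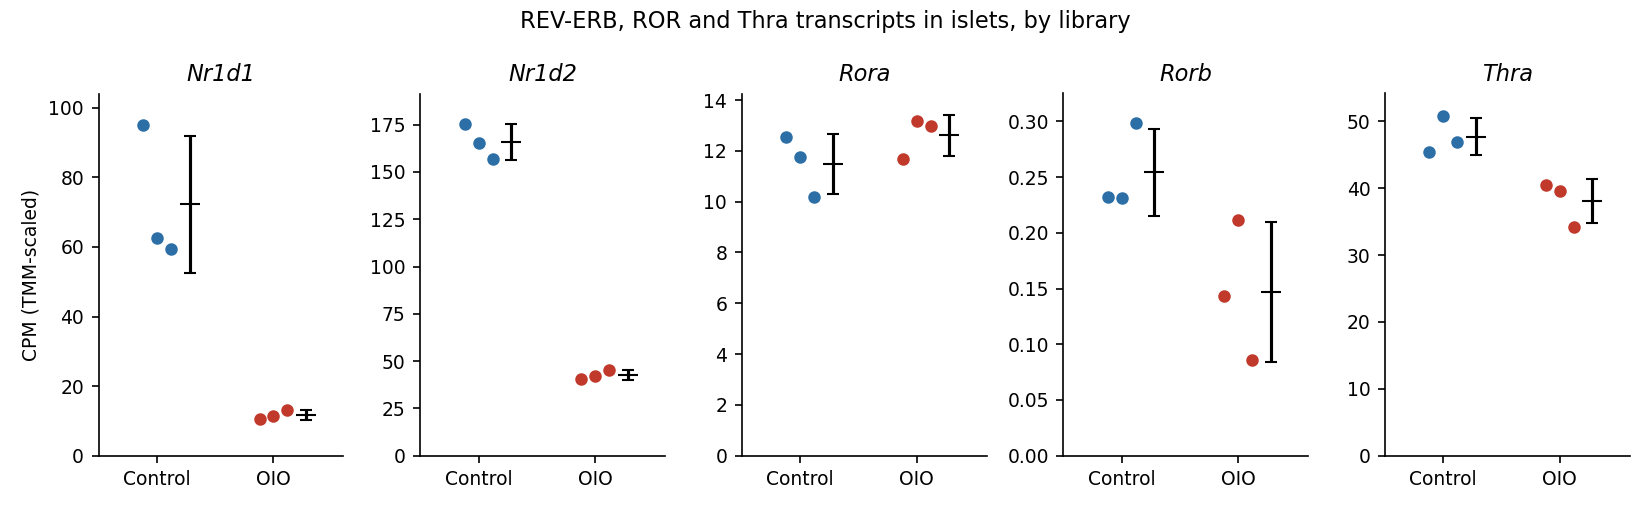
CPM (TMM-scaled, linear axes from 0) of the 5 genes in each control (blue) and OIO (red) library, with the mean and SD of each group beside the points. Nr1d1 and Nr1d2 lie far lower in OIO islets, Thra slightly lower, Rora overlaps between groups, and Rorb stays under 0.3 CPM in every library.

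Thra was slightly lower in the OIO group. It had 45.4, 50.8 and 46.9 CPM in the control and 40.5, 39.5 and 34.3 CPM in the OIO libraries. The groups did not overlap, although OIO replicate 1 and control replicate 1 were close. The mean was 47.7 ± 2.76 (SD, n = 3) in control and 38.1 ± 3.34 (SD, n = 3) in OIO islets, a log2 fold change of −0.33, and −0.25 without OIO replicate 3. Over all genes tested, the groups did not overlap for 29.3%. That was so for 3 of the 4 members tested, Nr1d1, Nr1d2 and Thra.

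The pair shares a small part of its annotated exons. On GRCm38 chromosome 11, Nr1d1 runs from 98767932 to 98775333 on the minus strand and Thra from 98740638 to 98769006 on the plus strand, so that their spans share 1075 bases at the 3′ ends (98767932 to 98769006). Exons of both genes coincide over 263 bases, which is 8.55% of the exon bases of Nr1d1 and 5.70% of those of Thra. Of 4 protein-coding Thra transcripts annotated, 2 reach into Nr1d1 exons and 2 do not. The labels do not say whether the library kit marked strand, so reads from the shared bases cannot be assigned from the files.

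The difference in Thra, 9.63 CPM, was 15.9% of the difference in Nr1d1, 60.5 CPM, and both were lower in OIO. Within the control group the genes did not move together: Nr1d1 in control replicate 1 differed from the mean of the other control libraries by 34.0 CPM, and Thra by −3.45 CPM. Within the OIO group, replicate 3 had the highest Nr1d1 and the lowest Thra. With the counts of both genes summed, the libraries held 140.4, 113.2 and 106.4 CPM in control and 51.1, 50.9 and 47.5 CPM in OIO islets. The summed level in OIO was 41.5% of that in control, a log2 fold change of −1.27. This sum does not depend on how shared reads were divided between the genes.

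**Figure D2:**
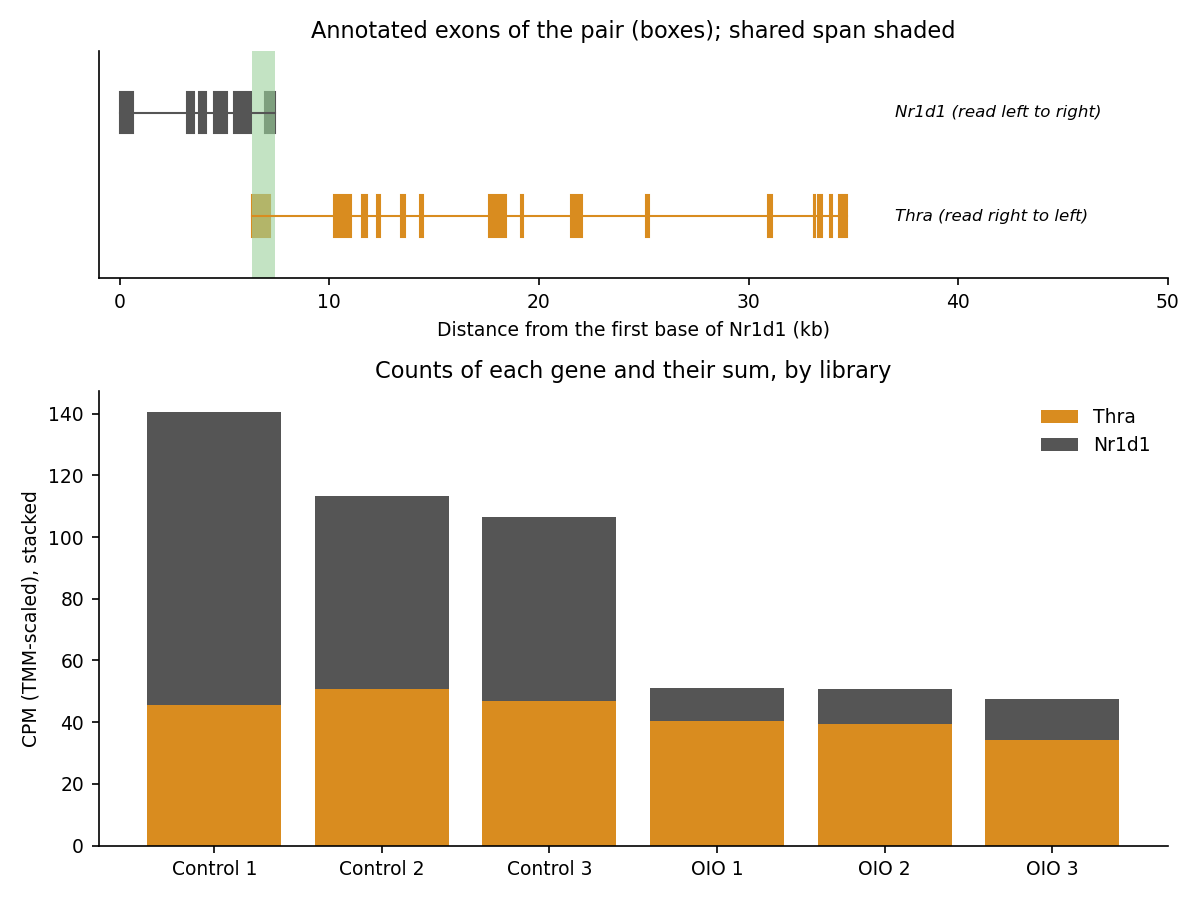
Top, annotated exons of Nr1d1 and Thra (boxes) by distance in kb from the first base of Nr1d1, with the shared span shaded. Bottom, stacked CPM (TMM-scaled) of Thra and Nr1d1 in each library, where in the OIO libraries the Nr1d1 part is far smaller and the Thra part slightly smaller.

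Genes beside the REV-ERB loci did not share the size of these differences. Of the 3 nearest tested genes on each side of Nr1d1, the 5 other than Thra had log2 fold changes between −0.35 and 0.14, and none passed edgeR's quasi-likelihood test (adjusted p between 0.22 and 0.89). These were Med24, Psmd3, Msl1, Gm12359 and Casc3. Around Nr1d2, which lies on chromosome 14 from 18204054 to 18239127, the 6 nearest genes had log2 fold changes between −0.13 and 0.20. Thrb, the gene of thyroid hormone receptor beta, lies 165963 bases from Nr1d2. Its level was 17.0 ± 1.09 CPM (SD, n = 3) in control and 18.4 ± 0.53 CPM in OIO islets. The log2 fold change of 0.12 had an SE of 0.08 (adjusted p = 0.41 in edgeR, and 0.28 to 0.72 over 12 alternative settings). Rpl15, a ribosomal protein gene, was the only neighbour that passed, at 0.20 (SE 0.05, adjusted p = 0.048). It did not pass in 9 of the 12 alternative settings, in which its adjusted p reached 0.14, every fit that left out a library among them.

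Rora did not share the difference of the REV-ERB genes. Rora, the gene of the activator ROR alpha, had 12.5, 11.7 and 10.2 CPM in the control and 11.7, 13.2 and 13.0 CPM in the OIO libraries. The groups overlapped, and the means of 11.5 ± 1.19 (SD, n = 3) and 12.6 ± 0.81 (SD, n = 3) differed by 1.13 CPM, a log2 fold change of 0.14 that ranged from 0.06 to 0.21 when a library was left out. Rora lies on chromosome 9 from 68653786 to 69388246. The authors' deposited table gave 0.16 for Rora and −0.33 for Thra on the log2 scale.

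Rorb, the gene of ROR beta, which is known mainly from retina and brain, was barely detected. It had 8, 9 and 12 counts in the control and 3, 10 and 3 counts in the OIO libraries. Its scaled levels, 0.232, 0.231 and 0.299 CPM in control and 0.144, 0.211 and 0.0863 CPM in OIO libraries, did not overlap. The log2 fold change without a filter was −0.74. It did not pass the filter on low counts, and it was the only member that failed it. Pooled over libraries it had 29 counts, or 0.261 CPM on summed libraries (95% exact Poisson interval 0.175 to 0.375), in control and 16 counts, or 0.152 (0.0866 to 0.246), in OIO islets. The intervals cover counting error only. Rorb lies on chromosome 19 from 18930605 to 19111196.

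Per kb of annotated exon, the order of the receptor genes changed between groups. In control islets Nr1d2 had the highest level at 30.7 ± 1.75 CPM per kb (SD, n = 3), followed by Nr1d1 at 23.5 ± 6.40, Thra at 10.3 ± 0.60, Rora at 0.879 ± 0.091 and Rorb at 0.0229 ± 0.0035. The ranges of Nr1d2 and Nr1d1 overlapped, and the other neighbours in this order did not. In OIO islets Thra came first at 8.26 ± 0.72 CPM per kb (SD, n = 3), with a range that overlapped that of Nr1d2 at 7.88 ± 0.49. Nr1d1 followed at 3.81 ± 0.45 and Rora at 0.965 ± 0.062. Per kb, Nr1d1 stood 2.27-fold above Thra in control islets (1.36-fold with the longest annotated transcript as the length), and Nr1d2 2.07-fold above Nr1d1 and Nr1d1 3.95-fold above Rora in OIO islets. With the longest annotated transcript as the length, the order was the same in each group, and Thra then lay 1.70-fold above Nr1d2 in OIO islets without overlap, against 1.048-fold with all exons. The control level of Thra was 19.5 CPM per kb on that length.

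**Figure D3:**
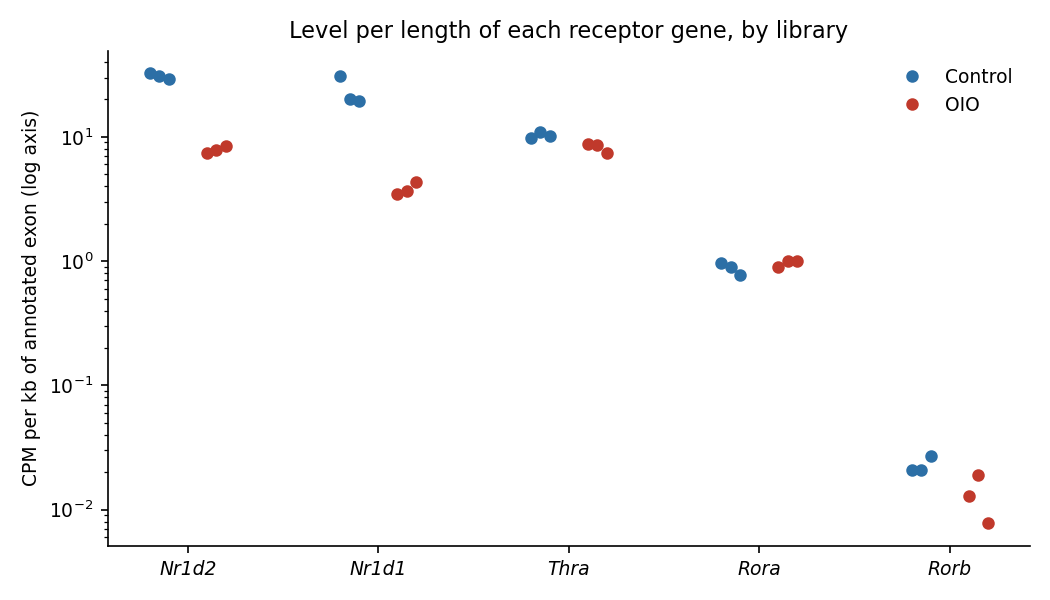
CPM per kb of annotated exon (log axis) of each receptor gene in each control (blue) and OIO (red) library. Nr1d2 and Nr1d1 lead in the control libraries. In the OIO libraries Nr1d1 lies below Thra and Nr1d2 overlaps with it, above it in OIO replicate 3, whereas Rora stays near 1 CPM per kb.

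Dbp, Per3 and Nr4a1 were among the genes nearest in profile to both Nr1d1 and Nr1d2 over the 6 libraries. Likeness was the root mean square difference of centred log2 CPM. The search covered 11033 tested genes with a mean log2 CPM of 2 or more, without predicted-gene symbols and genes not reported here. Likeness is a description that mostly carries the difference between groups. For Nr1d1 the nearest was Dbp, a clock-driven bZIP activator, at 0.23, followed by Nr1d2 at 0.36, the immediate early receptor gene Nr4a1 at 0.55, the period gene Per3 at 0.58 and the kinase gene Sik1 at 0.70 (log2 units). For Nr1d2 the nearest were Dbp at 0.23, Per3 at 0.29 and Nr4a1 at 0.30. Nr1d1 was not among these. Nr4a1 went from 64.8 ± 21.9 CPM in control to 16.2 ± 1.601 CPM in OIO islets (SD, n = 3 per group) and fell by 2.01 (SE 0.28, adjusted p = 0.022 in edgeR). Its call was lost when OIO replicate 1, 2 or 3 or control replicate 3 was left out, with adjusted p of 0.097, 0.10, 0.089 and 0.055 in a range of 1.1e-09 to 0.10 over the 12 alternatives. Sik1 fell by 1.65 (SE 0.26, adjusted p = 0.014), a call lost when OIO replicate 1 was left out (adjusted p = 0.068, the highest over the alternatives, the lowest being 2.7e-10). Nr4a1 and Sik1 were picked for likeness to Nr1d1, so a large fall follows from that choice and their p-values are descriptive. For Rora the nearest were Dnajb12, Zhx3 and Slc9a7, at 0.02 to 0.03, and for Thra Fam227a, Zfp942 and Cmya5, at 0.04. The log2 fold changes of these 6 genes lay between −0.35 and 0.14.

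Arntl, Npas2, Cry1 and Nfil3, which are known to be repressed by REV-ERB and activated by ROR, were higher in OIO islets. The list held 14 genes known as targets of REV-ERB or ROR from any tissue, and it was written with earlier results of these data known. Of its genes 11 could be tested, and 4 rose and none fell in edgeR's quasi-likelihood test over all genes. Of all genes tested, 7.37% were called at an adjusted p under 0.05, with 4.54% higher and 2.84% lower. The median log2 fold change of the tested members was 0.41, against −0.01 over all genes.

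Arntl, the gene of BMAL1, had 13.3, 16.1 and 10.98 CPM in the control and 27.9, 34.6 and 31.1 CPM in the OIO libraries, without overlap. It rose by 1.22 (SE 0.14, adjusted p = 0.0022). Npas2, a paralog of CLOCK that pairs with BMAL1, had 4.603 ± 1.21 CPM in control and 14.2 ± 1.21 CPM in OIO islets (SD, n = 3 per group) and rose by 1.62 (SE 0.17, adjusted p = 9.6e-04). Cry1, a repressor of CLOCK and BMAL1 whose gene has both E-boxes and the REV-ERB element, had 9.87 ± 1.98 CPM in control and 25.3 ± 2.47 CPM in OIO islets and rose by 1.35 (SE 0.14, adjusted p = 0.0014). These 3 genes passed in every one of the 12 alternative settings. Nfil3, a bZIP repressor that opposes Dbp, had 14.2, 19.1 and 11.4 CPM in the control and 30.7, 32.6 and 35.1 CPM in the OIO libraries. It rose by 1.14 (SE 0.18, adjusted p = 0.014). Its call was lost when OIO replicate 2, OIO replicate 3 or control replicate 1 was left out, with adjusted p of 0.059, 0.051 and 0.068 in a range of 9.9e-12 to 0.068 over the alternatives.

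The other 7 tested targets did not pass and had log2 fold changes between −0.40 and 0.55. Clock, the partner of BMAL1, had 136.1 ± 4.06 CPM in control and 153.9 ± 4.54 CPM in OIO islets, and its adjusted p was 0.070. The rest are known as targets from liver, brain or macrophages and include Insig2, a regulator of sterol synthesis (0.08, adjusted p = 0.50), and Cx3cr1, a chemokine receptor of macrophages (−0.07, adjusted p = 0.81). Clock, Insig2 and Cx3cr1 were named after their values were seen. Elovl3, Apoc3 and G6pc, known from liver, were too low to test.

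Of 14 genes known as driven by CLOCK and BMAL1 through E-boxes, as the REV-ERB genes are, all were tested, 6 fell, 1 rose and 7 did not pass. That is 50% called, against 7.37% of all genes tested. The list was written with earlier results of these data known. The median log2 fold change was −0.59. Dbp had 61.4, 43.2 and 45.8 CPM in the control and 11.1, 9.93 and 9.66 CPM in the OIO libraries and fell by 2.30 (SE 0.14, adjusted p = 2.6e-04). Per3 fell by 1.52 (SE 0.13, adjusted p = 3.0e-04), and the bZIP activators Tef and Hlf fell by 1.24 (SE 0.10, adjusted p = 3.0e-04) and 0.82 (SE 0.10, adjusted p = 0.0012). Bhlhe40 and Bhlhe41, the genes of the E-box repressors DEC1 and DEC2, fell by 0.69 (SE 0.08, adjusted p = 0.0012) and 0.58 (SE 0.08, adjusted p = 0.0047). The gene that rose was Cry1. The 7 calls of this list were the count in every alternative setting.

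The 7 that did not pass had log2 fold changes from −1.03 for Ciart, a repressor of CLOCK and BMAL1 at 1.67 ± 0.41 CPM in control islets (SE 0.32, adjusted p = 0.078), to 0.47 for the deubiquitinase gene Usp2 (SE 0.20, adjusted p = 0.20). Per1 and Cry2 are named after their values were seen, because OIO replicate 3 stood apart in both. Per1 had 48.2 CPM there against 19.9 and 20.6 in the other OIO libraries, and Cry2 160.5 CPM against 64.7 and 70.4. In the same library Nr1d1 and Nr1d2 were the highest of the OIO group, at 13.3 and 45.5 CPM. The genes of this list that fell did not move together there. Dbp, Per3, Tef and Bhlhe41 were the lowest of the OIO group in that library, whereas Hlf and Bhlhe40 were the highest. Without OIO replicate 3 the log2 fold changes were −2.70 for Nr1d1 and −2.002 for Nr1d2.

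**Figure D4:**
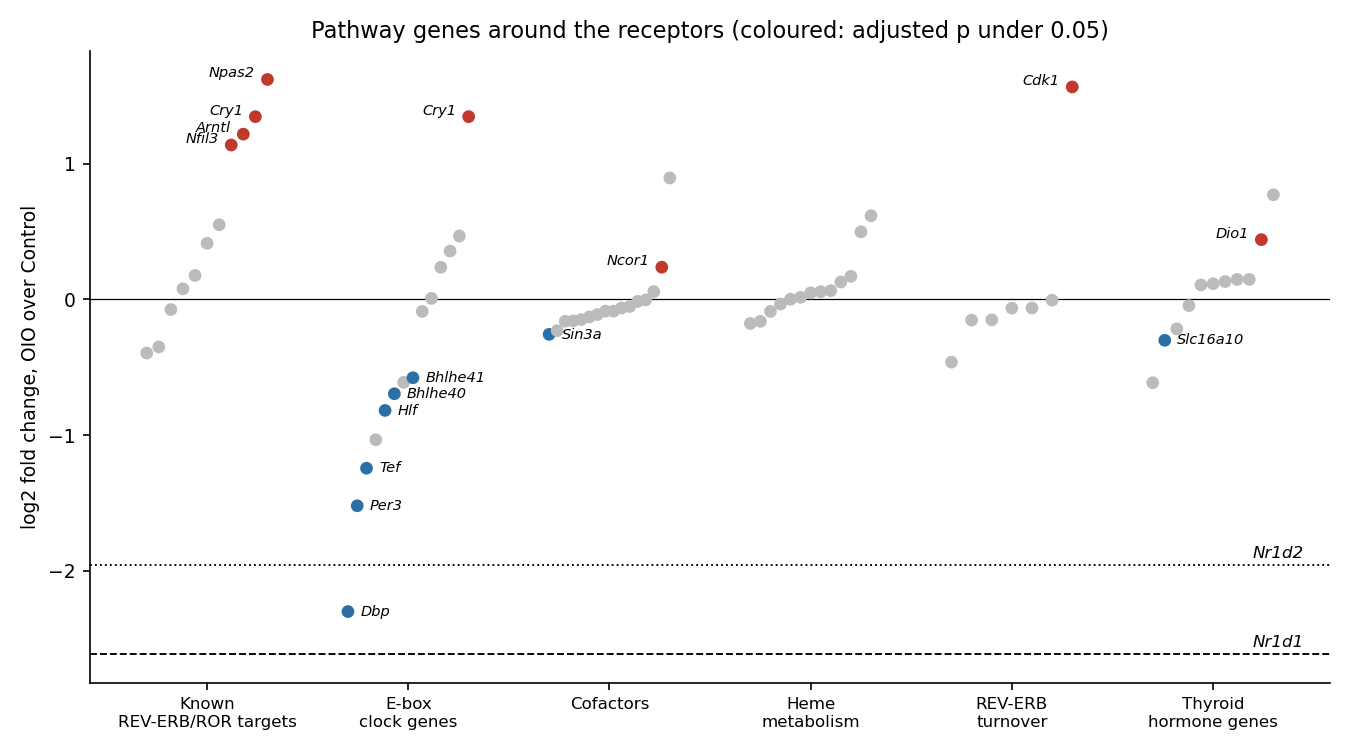
Log2 fold change of OIO over control for every tested gene of 6 lists around the receptors. Red and blue points passed at an adjusted p under 0.05, and lines mark the values of Nr1d1 (dashed, −2.61) and Nr1d2 (dotted, −1.96).

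Within the control group the clock genes did not vary as a single block. Relative to the control mean in log2 CPM, control replicate 1 was the highest for Nr1d1 (0.43), Dbp (0.31), Per3 (0.26), Tef (0.18) and Nr1d2 (0.08) and the lowest for Cry1 (−0.35). Of the other E-box genes that fell, Bhlhe41 was also highest there (0.122). Hlf was lowest there (−0.086), and Bhlhe40 was highest in control replicate 3 (0.035). Control replicate 2 was the highest for Npas2 (0.40), Nfil3 (0.39) and Arntl (0.28), and control replicate 3 the lowest for these 3 genes (−0.30, −0.35 and −0.27). With 3 libraries these orders are descriptions. Control replicate 2 also had the highest summed alpha cell markers of any library, 79675 CPM against 43687 to 61885, and the lowest beta cell markers, 185776 CPM against 231521 to 263804; their part in these values was not tested.

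**Figure D5:**
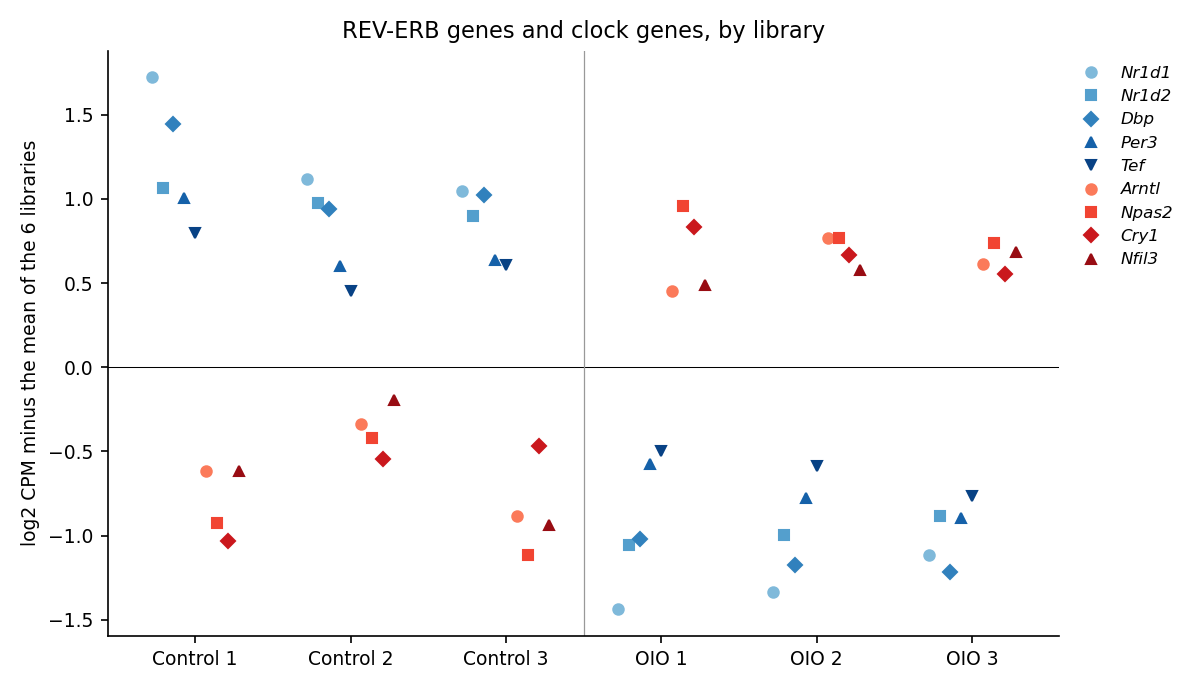
Log2 CPM minus the mean of the 6 libraries for the REV-ERB genes and 3 genes that fell (blue) and for 4 genes that rose (red), by library. The blue genes lie above 0 in all control libraries and below 0 in all OIO libraries, and the red genes the reverse; the 9 genes were picked with their values known.

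Among genes that act with REV-ERB and ROR proteins, 16 cofactor genes were all tested and 12.5% were called, against 7.37% of all genes. Ncor1 rose by 0.24 (SE 0.06, adjusted p = 0.044) and Sin3a fell by 0.26 (SE 0.06, adjusted p = 0.032), with a median of −0.09. Ncor1 encodes the corepressor that REV-ERB recruits and had 272.0 ± 18.9 CPM in control and 320.8 ± 1.14 CPM in OIO islets. Sin3a, the scaffold of a histone deacetylase complex, had 89.7 ± 5.03 and 75.1 ± 3.69 CPM. Ncor1 did not pass with libraries scaled by size alone or without any single library other than control replicate 1 (highest adjusted p 0.12, lowest 0.0022). Sin3a did not pass without any single library other than control replicate 3 (highest 0.13, lowest 0.0080). Tbl1xr1, a subunit of the NCoR complex, had −0.16 (adjusted p = 0.17).

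None of 13 genes of heme synthesis and breakdown passed in edgeR (0%, against 7.37% of all genes), and none with DESeq2 (0) or limma voom (0). In edgeR 2 had an unadjusted p under 0.05, for which the share over all genes was not taken. Hmox1, the heme-degrading oxygenase, had 0.50 (SE 0.18, adjusted p = 0.13), and passed only without OIO replicate 2 (adjusted p = 0.046, in a range up to 0.30 over the alternatives). Uros had 0.17 (adjusted p = 0.17) and Cpox −0.16 (adjusted p = 0.23). Of 7 genes that act on REV-ERB protein stability, 1 was called (14.3%, against 7.37% of all genes). Cdk1, known foremost as the kinase of mitotic entry, had 4.10 ± 1.57 CPM in control and 12.1 ± 1.49 CPM in OIO islets and rose by 1.57 (SE 0.28, adjusted p = 0.023). Its call was lost when OIO replicate 1, 2 or 3 or control replicate 1 was left out, with adjusted p of 0.057, 0.082, 0.072 and 0.054 (lowest over the alternatives 5.6e-09). The ubiquitin ligase genes Mycbp2 and Siah2 had −0.15 each (adjusted p 0.13 and 0.20). Mycbp2 passed with libraries scaled by size alone (adjusted p = 0.039, highest over the alternatives 0.35).

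Thra encodes a thyroid hormone receptor. Of 11 tested genes of thyroid hormone action, 1 rose and 1 fell (18.2% called, against 7.37% of all genes), with a median of 0.12. Dio1, the deiodinase that forms active thyroid hormone, had 126.5 ± 9.88 CPM in control and 171.7 ± 10.5 CPM in OIO islets and rose by 0.44 (SE 0.07, adjusted p = 0.0059), also in every alternative setting. Slc16a10, a transporter of aromatic amino acids and thyroid hormone, fell by 0.30 (SE 0.07, adjusted p = 0.025). The call was lost when OIO replicate 1, OIO replicate 3 or control replicate 1 was left out, with adjusted p of 0.11, 0.10 and 0.059 (lowest over the alternatives 6.0e-04). Thrsp, a thyroid hormone-responsive gene of lipid synthesis, had 0.77 (SE 0.25, adjusted p = 0.096) and passed in DESeq2 (adjusted p = 0.046, highest over the alternatives 0.29). Dio2 and Dio3 were too low to test.

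The libraries carried the defining islet transcripts and lesser amounts of transcripts of other cells. Summed beta cell markers (Ins1, Ins2, Iapp, Mafa, Slc2a2 and Ucn3) held 185776 to 263804 CPM. Of 6 beta cell and 4 duct markers, 1 each passed, namely Slc2a2, which fell, and Krt7, which rose. No marker of the alpha cell list (4 genes), delta and PP cells, lymphoid cells, macrophages, endothelium, stroma, acini or glia passed. Duct markers summed to 231.7 to 260.1 CPM in OIO against 204.2 to 209.4 CPM in control islets, delta and PP markers to 6089 to 7307 against 7736 to 8416, and glial markers to 15.1 to 20.6 against 20.9 to 24.6, without overlap. Beta cell sums did not overlap either, at 240937 to 263804 CPM in OIO against 185776 to 237521 in control islets. Lymphoid markers, from cells that also express Rora, summed to 23.0 to 49.4 against 19.3 to 40.4 CPM and overlapped. Acinar markers summed to 2233 to 5187 CPM in OIO against 1842 to 6053 CPM in control islets and overlapped. They were highest in control replicate 1 (6053) and OIO replicate 1 (5187). Stromal markers summed to 132.8 to 262.5 against 165.9 to 473.3 CPM and overlapped, with the highest sum in control replicate 3. The part of these cell types in the values of the receptor genes was not tested.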

How the data were processed

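The authors deposited whole-number counts per gene symbol for 6 libraries, without normalization, and the values were used as they stand. Per the submitters' processing notes, the tools were kallisto, limma and bcl2fastq, and mm10 and GRCm38 are listed as builds; neither versions nor roles are stated. The authors' deposited comparison table gives, per the file headers, log2 values, p-values and scores (limma's statistics); it was used only for fold changes of members. Library codes in the table carry an extra 0 relative to the labels and were matched by number, and replicates were numbered in accession order.

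For the tests, edgeR 4.0.16 under R 4.3.3 was run on the counts (filterByExpr, TMM, robust quasi-likelihood, group as the only term, 4 residual degrees of freedom), with Benjamini-Hochberg adjustment over 14903 genes and a threshold of 0.05. The test was checked on simulated counts. The SE was taken as the size of the log2 change over the root of F. An exact permutation test of 3 against 3 cannot give a 2-sided p under 0.1. Rorb failed the filter, so its fold change comes from a fit without it. Of the list symbols, 2 (Ciart and Adgre1) were matched through RefSeq synonyms. Coordinates and lengths came from GENCODE M21 (GRCm38) and promoter sequences from RefSeq (GRCm38.p6). The members, lists and alternatives were chosen with earlier results of these data known.

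Named genes were the members, Thrb, called members of each list or else the 3 of lowest p, the nearest neighbours and the genes of most similar profile. The lists held 2 further genes, which were left out of their counts and sums and are not reported here. Alternatives were RLE (the DESeq2 size factors), upper-quartile and library-size scaling, no filter, DESeq2 1.42.0, limma 3.58.1 (voom) and leaving out each library.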

Additional observations from a re-analysis of the deposited data

How the results depend on the processing

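Nr1d1, Nr1d2, Rora, Thra and the sum of Nr1d1 and Thra kept their direction in all 12 alternatives. When a library was left out, Nr1d1 ranged from −2.74 to −2.37 and Nr1d2 from −2.002 to −1.91. Shifts of these 5 values were under the spread between replicates. That spread includes the library left out, so fits without a library could hardly exceed it at these counts. Rorb, at 3 to 12 counts a library, ranged from −1.17 to −0.45 when a library was left out. Genes called over the whole table numbered 460 to 817 without a library (336 to 560 higher, 112 to 303 lower), against 1099 with all (676 higher, 423 lower). Scaled by library size alone, 498 were higher and 1113 lower, with a median of all genes at −0.08; Nr1d1 was then at −2.68, Nr1d2 at −2.02, Rora at 0.07 and Thra at −0.39. Without a library, 0 to 1 cofactor, 0 to 1 heme, 0 to 1 turnover and 1 to 2 thyroid hormone genes were called, and 2 turnover genes with library size alone. The REV-ERB and ROR target list held 3 to 4 calls without a library and 5 in DESeq2. Neighbours near 0 changed sign: Casc3 was at −0.046 with library size alone and −0.022 to 0.077 without a library, Nkiras1 at 0.001 with RLE and 0.001 in DESeq2 and −0.082 to 0.071 without a library, Rarb at −0.406 to 0.169 without a library, and Ube2e1 at −0.001 with library size alone. Causes were not tested. No paired analysis was possible because the labels give no replicate numbers that link libraries of the groups. Depth limits Rorb and the untested list genes.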
